A study of Mus musculus with 19 samples.

Results

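Antioxidant and glutathione genes were followed in FDCPmix, an interleukin-3-dependent line of mouse blood progenitors with the capacity to differentiate into erythroid and myeloid cells. The genes were taken by symbol: the glutathione S-transferases, glutathione peroxidases, peroxiredoxins, thioredoxins, glutaredoxins and superoxide dismutases, the enzymes of glutathione synthesis, catalase and haem oxygenase. The rule found 56 genes, measured by 74 probes, among 9834 genes with a symbol and 16148 features in all. Nqo1 and Gsr, also named by the rule, were not among these 56. Expression was measured on 19 arrays with 2 channels, each pairing a sample's own RNA with a reference RNA. Treated cells without a stated time (4 arrays) were set against non-treated FDCPmix cells. Cells harvested 3, 7, 12 and 23 h after tamoxifen, an oestrogen receptor ligand, were set against treated cells at 0 h, with 4 arrays at each of the first 3 times and replicates 1, 3 and 4 at 23 h. In each group of 4 the own RNA carried Cy5 on replicates 1 and 2 and Cy3 on replicates 3 and 4, and at 23 h it carried Cy5 on replicate 1 only. The labels call the material an ES cell line as well, do not name a transgene that tamoxifen would act on, and do not say whether replicates came from separate cultures, so that p-values measure only the spread between these arrays.

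Glutathione is built in 2 steps by glutamate-cysteine ligase and glutathione synthetase. It feeds the glutathione peroxidases, which remove peroxides, the S-transferases, which couple it to electrophiles, and the glutaredoxins, which reverse its bonds with proteins. The thioredoxins, kept reduced by thioredoxin reductase, feed the peroxiredoxins in parallel, and superoxide dismutases and catalase act without either thiol. In haematopoietic cells these systems keep peroxide from haem synthesis, haemoglobin and the phagocyte oxidase in check, and many of the genes are known targets of the transcription factor NRF2.

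Each value is a deposited log ratio per spot, centred on the array's median and averaged over the probes of a gene. It is read as log2 of own RNA over reference, an assumed direction and base, since neither is given in the sources used here. Ratios hold no level, so the presence of FDCPmix markers could not be checked. The SD over all features was 0.593 to 0.616 on the treated arrays, against 0.227 to 0.354 on the time course arrays. For this reason the treated arrays were fitted alone and the 15 time course arrays together, with limma, and calls were made at an adjusted p under 0.05. Treated arrays hardly agreed over all features. Their correlation (r) was -0.145 to -0.016 between arrays of opposite dyes, and 0.055 and 0.143 between arrays of the same dye. Time course arrays also agreed little across dyes. At 3 h their r was -0.0096 to 0.057 between opposite dyes, and 0.178 and 0.066 within a dye. At 12 h it was -0.125 to -0.0051 between opposite dyes, and 0.321 and 0.132 within a dye. A pair of arrays was in doubt. Each array repeats 1 extreme value on several spots, and its sign followed the dye: above 0 on arrays with Cy5-labelled own RNA and below 0 on those with Cy3. The exception was 7 h replicate 4, a Cy3 array with 16.291. Over all features it did not plainly run against its group. Its r was 0.058 and 0.046 with 7 h replicates 1 and 2, of the opposite dye, and -0.151 with replicate 3 of its own dye. The r of 7 h replicate 3 with replicates 1 and 2 was -0.044 and -0.014. Replicate 3 at 23 h had a deposited median of 0.233, against -0.012 to 0.024 on the other 18 arrays. Its values also ran against its group, a trait visible only in the outcome. Its r was -0.149 with replicate 1 and -0.078 with replicate 4, which carried the same dye. Some pairs of opposite dyes not in doubt had a similar r, as treated replicates 2 and 3 (-0.145) and 12 h replicates 2 and 3 (-0.125). On 7 h replicate 4 and 23 h replicate 3 the median of 12 neutrophil markers was 0.42 and 0.73, while it was -0.82 to -0.072 on the other 17. Both arrays were kept, and results that rest on them are given without them as well.

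**Figure D1:**
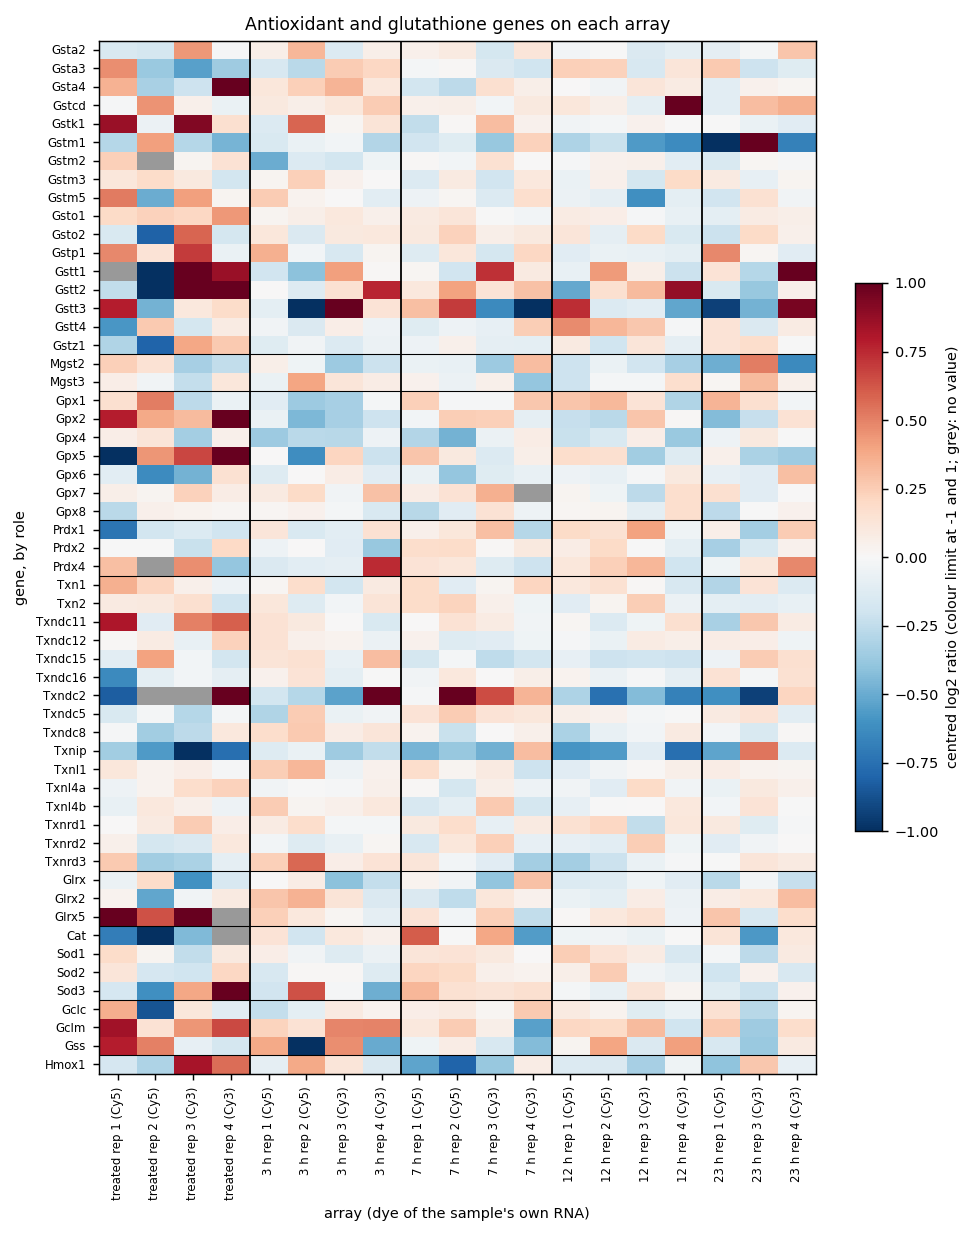
Centred log2 ratio of each of the 56 genes (vertical axis, ordered by role, a thin line between roles) on each of the 19 arrays (horizontal axis, a thick line between groups, with the dye of the own RNA). Red is above 0 and blue below, the colour is limited at -1 and 1, and grey marks a missing value: single arrays of treated cells carry the strongest colours, as for Gstt1, Gstt2, Cat and Glrx5, and few genes keep 1 colour across a group.

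Across the genes as a set, no comparison moved a member past the threshold, and the medians stayed near 0. In treated cells 0 of 55 members were called (Txndc2 had too few values), with 0% of all 15915 features called. The same held for 0 of 56 members at 3 h (0% of features), 7 h (0%), 12 h (0.0186%) and 23 h (0%), by limma with Benjamini-Hochberg adjustment. At an unadjusted p under 0.05 the members counted 4 in treated cells, where 6.21% of all features did so. They counted 7 at 3 h (10.8% of features), 5 at 7 h (7.04%), 6 at 12 h (6.25%) and 0 at 23 h (3.35%). Among 56 members these counts differ from the background shares by a few genes at most.

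The median fitted log2 ratio of the members was 0.023 in treated cells, 0.023 at 3 h, 0.020 at 7 h, -0.00025 at 12 h and -0.0075 at 23 h, and that of all features lay between -0.0018 and 0.0090. Members whose arrays all lay on 1 side of 0 numbered 9 of 50 with complete values in treated cells (14.0% of features), 15 of 56 at 3 h (21.7%), 10 of 55 at 7 h (12.6%), 12 of 56 at 12 h (14.5%) and 6 of 56 at 23 h (19.4%). The 12 at 12 h all lay below 0, among them Txnip, Gstm1, Mgst2 and Hmox1, but also Cat, at only -0.063 to -0.005. The 14.5% counts features on either side, and the share of features below 0 alone was not counted. Fitted values at 12 h lay above 0 for 28 members and below 0 for 28. Members whose Cy5 and Cy3 arrays lay on opposite sides of 0 numbered 7 in treated cells (16.6% of features), 8 at 3 h (14.4%), 5 at 7 h (12.6%), 12 at 12 h (23.8%) and 12 at 23 h (24.4%). Of the 14 members with several probes, the probe means lay on opposite sides of 0 for 8 in treated cells, 11 at 3 h, 8 at 7 h, 9 at 12 h and 8 at 23 h. The share over all 2969 genes with several probes was not counted, so these numbers do not set the members apart.

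Catalase, the peroxisomal enzyme that splits hydrogen peroxide, had the lowest mean and fitted value of all members in treated cells. The Cat log2 ratio was -0.69, -2.93 and -0.44 in treated replicates 1, 2 and 3 and missing in replicate 4, so that every measured array lay below 0 but replicate 2 stood far under the others. The mean was -1.35 ± 1.37 (SD, n = 3), a spread wider than that of 95.5% of all features on these arrays. The fitted value was -1.13 (SE 0.58, adjusted p = 0.807), and without replicate 2 it was -0.56. Replicate 3 was the only Cy3 array with a value, so the dye term absorbs it and that SE rests on replicates 1 and 2.

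In the time course Cat lay close to 0, and its spread differed between times. At 3 h it was 0.14, -0.19, 0.11 and 0.049, with a fitted 0.025 (SE 0.15, adjusted p = 0.959). At 7 h it was 0.60, -0.001, 0.39 and -0.56, the last on the array in doubt, and the SD of 0.51 exceeded that of 93.6% of features. At 12 h the 4 arrays lay between -0.063 and -0.005, an SD of 0.024 that was wider than only 0.584% of features. At 23 h Cat was 0.13, -0.58 and 0.10, again with the array in doubt as the low value. The fitted value at 23 h was -0.091, and it was 0.12 without both arrays in doubt, so its sign rests on that array.

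Glutaredoxin 5, a mitochondrial enzyme needed for iron-sulphur cluster assembly and thereby for haem synthesis, had the highest mean and fitted value of all members in treated cells. The Glrx5 log2 ratio was 1.32, 0.64 and 4.10 in treated replicates 1, 2 and 3 and missing in replicate 4, with all 3 arrays above 0 and the highest value on the single Cy3 array. The mean was 2.02 ± 1.83 (SD, n = 3), wider than 97.8% of features. The fitted value was 2.54 (SE 0.22, adjusted p = 0.792). That SE rests on the 2 Cy5 arrays, since the dye term absorbs the only Cy3 array, and without replicate 3 the fitted value was 0.98. Changing the Cy3 signs gave -1.56, a change that sets the single Cy3 array against the Cy5 arrays. It therefore does not test the direction, which rests on the assumed reading of the ratios.

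After tamoxifen the wide values of Glrx5 were not seen. At 3 h it was 0.24, 0.11, 0.023 and -0.091, at 7 h 0.14, -0.025, 0.24 and -0.25, at 12 h 0.013, 0.11, 0.16 and -0.053, and at 23 h 0.28, -0.16 and 0.18. Values above and below 0 occurred at each time, both arrays in doubt lay below 0, and no time passed the test (adjusted p = 0.752 to 1). The treated arrays have another reference RNA than the time course, so the groups cannot be set against each other directly.

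**Figure D2:**
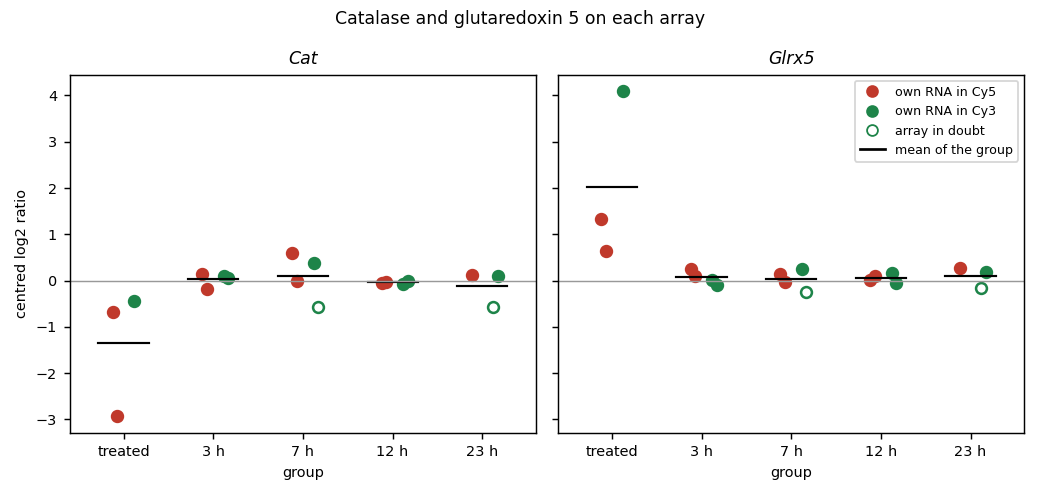
Centred log2 ratio (vertical axis) of Cat (left) and Glrx5 (right) on each array of the 5 groups (horizontal axis), with points coloured by the dye of the own RNA, open points for the arrays in doubt and a bar at the group mean. The treated arrays run from -2.93 to -0.44 for Cat and from 0.64 to 4.10 for Glrx5, and time course values lie between -0.58 and 0.60.

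Among members with at least 3 values, only the theta-class transferases Gstt1 and Gstt2 spread more widely than these enzymes in treated cells. Gstt1, which conjugates small halogenated compounds, was missing in treated replicate 1 and was -1.54, 3.88 and 0.87 in replicates 2 to 4 (SD 2.71, the widest of the members). Gstt2, a theta-class enzyme of the same gene cluster, was -0.24, -3.49, 1.56 and 1.82 in replicates 1 to 4 (SD 2.45). For both, the Cy5 arrays lay below 0 and the Cy3 arrays above, so that the fitted values, 0.42 for Gstt1 and -0.088 for Gstt2, were far smaller than the single arrays. Gstt3, with an SD of 0.51 on the treated arrays, spread more widely in the time course. It was -0.10, -1.29, 1.37 and 0.13 at 3 h, an SD of 1.09 that exceeded that of 98.9% of features, and at 7 h 0.30, 0.70, -0.64 and, on the array in doubt, -2.31. Over all members the median SD was 0.29 on treated arrays, where it was 0.30 for all features, and 0.15 to 0.18 at the 4 times, where it was 0.15 to 0.16.

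**Figure D3:**
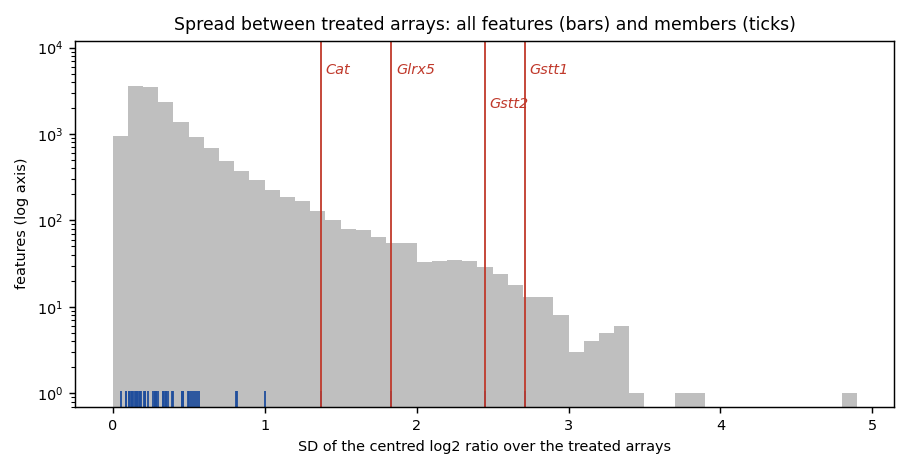
Number of features (vertical axis, log scale) by the SD of their centred log2 ratio over the treated arrays (horizontal axis, bars of width 0.1), with a tick for each member and lines at Cat (1.37), Glrx5 (1.83), Gstt2 (2.45) and Gstt1 (2.71). Most ticks lie with the bulk of the features, and these 4 lie in the thin right tail.

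Among the treated arrays, thioredoxin-interacting protein, which binds and inhibits thioredoxin and limits glucose uptake, had the clearest low values. Txnip was -0.35, -0.57, -1.18 and -0.76 in treated replicates 1 to 4, all below 0. The fitted value was -0.71 (SE 0.13, adjusted p = 0.792), and leaving out 1 treated array gave -0.82 to -0.61. Reading the Cy3 arrays with the opposite sign gave 0.26.

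Gclm, the modifier subunit that raises the activity of glutamate-cysteine ligase, was 0.84, 0.15, 0.44 and 0.66 in treated replicates 1 to 4. All 4 arrays lay above 0, with a fitted 0.52 (SE 0.16, adjusted p = 0.793). Gclc, the catalytic subunit, was 0.37, -0.86, 0.11 and -0.11, on both sides of 0, and its probes disagreed with means of 0.31 and -0.56. Gss, glutathione synthetase, was 0.79 and 0.50 on the Cy5 arrays but -0.082 and -0.18 on the Cy3 arrays.

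Gpx2, a glutathione peroxidase best known from the gut epithelium, was 0.79, 0.38, 0.32 and 1.41 in treated cells, all above 0, with a fitted 0.72 (SE 0.23, adjusted p = 0.793). Gsto1, an omega-class transferase that also reduces dehydroascorbate, was 0.19, 0.23, 0.21 and 0.44, with a fitted 0.27 (SE 0.10, adjusted p = 0.793). Txndc11, a thioredoxin-domain protein of the endoplasmic reticulum, was 0.81, -0.12, 0.50 and 0.60, with 3 of 4 arrays above 0 and a fitted 0.45 (SE 0.19, adjusted p = 0.803). When the Cy3 signs were changed, Gclm stood at -0.029, Gpx2 at -0.14, Gsto1 at -0.057 and Txndc11 at -0.10. That change sets the Cy5 against the Cy3 arrays, so genes alike on both dyes must move toward 0 or turn. These values therefore do not test the directions, which rest on the assumed reading of the ratios.

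The outcome for treated cells depended on the spread assumed. When the spread was shared with the time course arrays, 7 members passed the threshold, with 4.76% of all features doing so. They were Glrx5 (2.08, adjusted p = 0.0127), Gpx2 (0.72, adjusted p = 0.0138), Gsto1 (0.27, adjusted p = 0.0176), Txnip (-0.71, adjusted p = 0.0270), Cat (-1.34, adjusted p = 0.0396), Txndc11 (0.45, adjusted p = 0.0398) and Gclm (0.52, adjusted p = 0.0422). That fit takes the treated arrays to vary as little as the others, which their SDs do not bear out. No other member was called in either fit. Of the 17 S-transferases, Gsto1 included, 11 lay above 0 and 6 below, from -0.20 for Gsta3 to 0.47 for Gstk1, the transferase of mitochondria and peroxisomes. The peroxiredoxins ran from -0.31 for Prdx1, the cytosolic enzyme, to 0.17 for Prdx4 of the endoplasmic reticulum, and Sod1 and Sod2, the cytosolic and mitochondrial superoxide dismutases, stood at 0.014 and -0.0086, below the extracellular Sod3 at 0.22. The lowest peroxidase was Gpx6 (-0.26) and the lowest glutaredoxin Glrx (-0.16), and the microsomal Mgst2 and Mgst3 stood at -0.050 and -0.022.

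**Figure D4:**
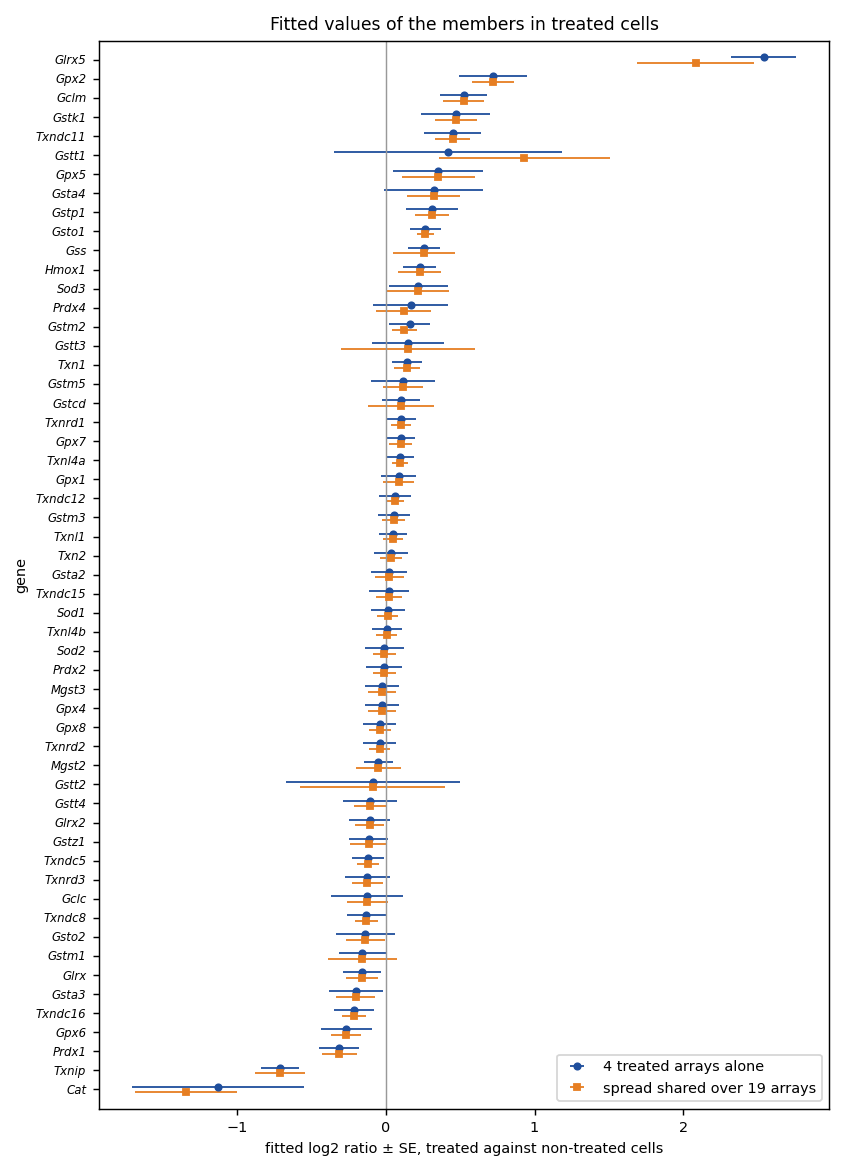
Fitted log2 ratio ± SE of the 55 tested members (vertical axis, sorted by value) in treated against non-treated cells (horizontal axis), for the treated arrays fitted alone (circles) and with the spread shared over 19 arrays (squares). Most members lie within 0.5 of 0, with Glrx5 at 2.54 and 2.08 on the right and Cat at -1.13 and -1.34 on the left.

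In the time course the members with the smallest p at 3 h were transferases and a peroxidase. Gsta4, the transferase that clears the lipid peroxidation product 4-hydroxynonenal, was 0.11, 0.24, 0.34 and 0.11, all above 0, with a fitted 0.20 (SE 0.056, adjusted p = 0.425). Gstm2, of the mu class, was -0.50, -0.14, -0.18 and -0.040, all below 0, with a fitted -0.21 (SE 0.064, adjusted p = 0.425). Gpx4, which reduces lipid hydroperoxides in membranes and blocks ferroptosis, was -0.36, -0.27, -0.28 and -0.054 at 3 h, with a fitted -0.24 (SE 0.077, adjusted p = 0.425).

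The Gpx4 ratio stayed below 0 on most later arrays without passing the test. At 7 h it was -0.30, -0.47, -0.056 and, on the array in doubt, 0.076, and at 12 h it was -0.22, -0.15, 0.068 and -0.37. By 23 h the values were -0.050, 0.094 and -0.004, and the fitted value was 0.22 higher than at 3 h (SE 0.12, adjusted p = 0.869). Gpx1, the abundant cytosolic peroxidase, was -0.11, -0.36, -0.34 and -0.018 at 3 h and 0.34, 0.16 and -0.025 at 23 h. The Gpx1 difference between these times was 0.39 (SE 0.15, adjusted p = 0.869). Gclm again lay above 0 at 3 h, at 0.22, 0.14, 0.49 and 0.50 (fitted 0.34, SE 0.13, adjusted p = 0.438), and at later times it was above 0 on 8 of 11 arrays, with both arrays in doubt below 0.

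At 7 h the smallest p belonged to Hmox1, haem oxygenase, which breaks haem down to biliverdin, iron and carbon monoxide. Hmox1 was -0.53, -0.80 and -0.38 in replicates 1 to 3 and 0.078 on the array in doubt, with a fitted -0.41 (SE 0.13, adjusted p = 0.629). Without both arrays in doubt the fitted value was -0.56 (SE 0.11, adjusted p = 0.0730), while changing the Cy3 signs gave -0.26. At 3 h the Hmox1 values were -0.092, 0.38, 0.12 and -0.15, at 12 h -0.14, -0.15, -0.33 and -0.042, and at 23 h -0.40, 0.27 and -0.085, the 0.27 on the array in doubt. Gpx6, a peroxidase known from the olfactory epithelium, was -0.067, -0.39, -0.12 and -0.077 at 7 h (fitted -0.16, SE 0.070, adjusted p = 0.689).

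At 12 h Txnip had the smallest p, at -0.59, -0.56, -0.11 and -0.76, all below 0 (fitted -0.51, SE 0.15, adjusted p = 0.640). Gstt4, a theta-class transferase, was 0.47, 0.33, 0.27 and -0.010 (fitted 0.27, SE 0.082, adjusted p = 0.654). Txndc15, a membrane protein with a thioredoxin domain, was -0.083, -0.21, -0.20 and -0.21 (fitted -0.18, SE 0.068, adjusted p = 0.739). Gstcd, a protein with a transferase-like domain, reached 1.93 in replicate 4 while the other arrays lay between -0.097 and 0.12. At 23 h the smallest p values belonged to Txndc16 at 0.14, -0.022 and 0.15 (fitted 0.10), Gpx2 at -0.43, -0.23 and 0.14 (fitted -0.20) and Glrx2, the mitochondrial and nuclear glutaredoxin, at 0.078, 0.11 and 0.31 (fitted 0.16), each with an adjusted p of 1.

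In the thioredoxin system the fitted values farthest from 0 at 7, 12 and 23 h were those of Txndc2, a thioredoxin of spermatids, and none passed the test. At 3 h Txndc2 was -0.18, -0.29, -0.54 and 1.29, and at 7 h -0.008, 1.38, 0.65 and, on the array in doubt, 0.34. The fitted value at 7 h, 0.59 (SE 0.28, adjusted p = 0.707), was the highest of all members. At 12 h it was -0.30, -0.75, -0.43 and -0.68, all below 0, and the fitted -0.54 (SE 0.28, unadjusted p = 0.0715) was the lowest of all members. At 23 h it was -0.61, -0.93 and 0.21, the -0.93 on the array in doubt, with a fitted -0.47 (SE 0.32, adjusted p = 1) that was -0.20 without both arrays in doubt. In treated cells it had only 2 values, -0.82 and 2.60 in replicates 1 and 4. At the other ends of the thioredoxin system stood Txnip (-0.20) and Txnrd3 (0.25) at 3 h, Txnip (-0.25) at 7 h, Txnrd1 (0.057) at 12 h and Txndc15 (0.12) at 23 h, all fitted values.

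Within the other roles the highest and lowest members changed from time to time, and all values in this paragraph are fitted log2 ratios of members that did not pass the test. Among the S-transferases the lowest and highest were Gstm2 (-0.21) and Gsta4 (0.20) at 3 h, Gstt3 (-0.49) and Gstt2 (0.23) at 7 h, Gstm1 (-0.43) and Gstcd (0.50) at 12 h, and Gstm1 (-0.23) and Gstt1 (0.30) at 23 h. The microsomal Mgst3 stood at 0.13, -0.086, -0.020 and 0.13 at 3, 7, 12 and 23 h, and Mgst2 at -0.14, -0.050, -0.20 and -0.20. Among the peroxidases the extremes were Gpx2 (-0.26) and Gpx7, an enzyme of the endoplasmic reticulum (0.13), at 3 h, Gpx4 (-0.19) and Gpx7 (0.19) at 7 h, Gpx4 (-0.17) and Gpx1 (0.11) at 12 h, and Gpx2 (-0.20) and Gpx1 (0.18) at 23 h. Of the glutaredoxins, the cytosolic Glrx was lowest at 3 h (-0.14), 12 h (-0.11) and 23 h (-0.16) and Glrx2 at 7 h (-0.060). The highest was Glrx2 at 3 h (0.15) and 23 h (0.16), and Glrx5 at 7 h (0.026) and 12 h (0.056). In glutathione synthesis Gss was lowest at 3 h (-0.18), 7 h (-0.14) and 23 h (-0.14) but highest at 12 h (0.17), with Gclm (0.34), Gclc (0.11), Gclc (-0.016) and Gclm (0.050) at the other end at 3, 7, 12 and 23 h.

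Prdx1, Prdx2 and Prdx4 had fitted values between -0.13 (Prdx2 at 3 h) and 0.18 (Prdx1 at 12 h), and Sod1, Sod2 and Sod3 between -0.093 (Sod2 at 23 h) and 0.19 (Sod3 at 7 h). Thioredoxin itself, Txn1, was 0.019, 0.18, -0.19 and 0.089 at 3 h and 0.10, 0.16, 0.011 and -0.16 at 12 h, on both sides of 0. Txnrd1, the cytosolic thioredoxin reductase, was 0.15, 0.21, -0.24 and 0.12 at 12 h. Txnrd3, its testis-enriched relative, was above 0 on all 4 arrays at 3 h (0.24, 0.58, 0.064 and 0.13) and below 0 on all 4 at 12 h (-0.34, -0.22, -0.070 and -0.011).

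Differences among the 4 times were tested with a moderated F. No member passed, as with 0% of all features, and 4 members had an unadjusted p under 0.05, where 6.63% of features did: Txndc15, Txnrd3, Gsta4 and Txndc2, with adjusted p values of 0.751 to 0.753. Between 23 h and 3 h again no member passed (0% of features), and 3 had an unadjusted p under 0.05 (5.46% of features). These were Gsta4 (-0.24), Gpx1 (0.39) and Txndc8 (-0.23), a spermatid thioredoxin like Txndc2.

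Without both arrays in doubt, Gstm1 and Mgst2 were called lower at 23 h, 2 of 56 members, with 0.368% of features called. They and their values at other times were singled out after their values had been seen, and leaving out 23 h replicate 3 for running against its group favours such calls. Gstm1, the main mu-class transferase of many tissues, was -0.15, -0.067, -0.024 and -0.29 at 3 h. At 7 h it was -0.19, -0.12 and -0.38 with 0.23 on the array in doubt, and at 12 h -0.30, -0.22, -0.57 and -0.63. At 23 h it was -1.01 in replicate 1 and -0.68 in replicate 4, with 1.06 on the array in doubt. The 4 lowest values were those of 12 h replicates 3 and 4 and 23 h replicates 1 and 4, and only the arrays in doubt lay above 0 in the time course.

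The fitted Gstm1 value at 23 h was -0.23 (SE 0.27, adjusted p = 1) on all arrays and -0.84 (SE 0.11, adjusted p = 0.0109) without both in doubt, where 59 features were called. At the other times that fit called no member, with 0.0993% of features called at 3 h, 0.478% at 7 h and 0.249% at 12 h. Mgst2, a membrane enzyme that can form leukotriene C4, was -0.49 and -0.63 in 23 h replicates 1 and 4 and 0.51 on the array in doubt. Its fitted value was -0.20 (SE 0.18, adjusted p = 1) on all arrays and -0.56 (SE 0.075, adjusted p = 0.0117) without both in doubt. With both arrays kept and their signs turned, Gstm1 (-0.43, adjusted p = 0.0280) and Txnip (-0.51, adjusted p = 0.0410) were called at 12 h (0.373% of features). Under the same setting Gstm1 (-0.89, adjusted p = 2.5e-04) and Mgst2 (-0.51, adjusted p = 0.0012) were called at 23 h (0.794% of features). That setting was chosen after the data were seen. Turning an array where its values ran against its group brings those values into agreement, so these calls are no independent support.

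With the Cy3 signs changed and both arrays left out, the 23 h values were -0.16 for Gstm1 and 0.072 for Mgst2, with an adjusted p of 1 for each. At 23 h that change sets replicate 1 against replicate 4, so genes alike on both must move toward 0 or turn. Those values therefore do not test the calls. Of the 13 time course arrays not in doubt, all lay below 0 for Gstm1 and for Txnip, 2 of 56 members. On all 13, 122 of 15730 features (0.776%) kept 1 side. On 7 h replicate 4 and 23 h replicate 3, left out here, Gstm1 was 0.23 and 1.06 and Txnip 0.31 and 0.54. Leaving out arrays in doubt favours such agreement. Gstm1 has close paralogs in Gstm2, Gstm3 and Gstm5, whose values at 23 h lay between -0.19 and 0.15. Cross-hybridisation between their probes was not tested.

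**Figure D5:**
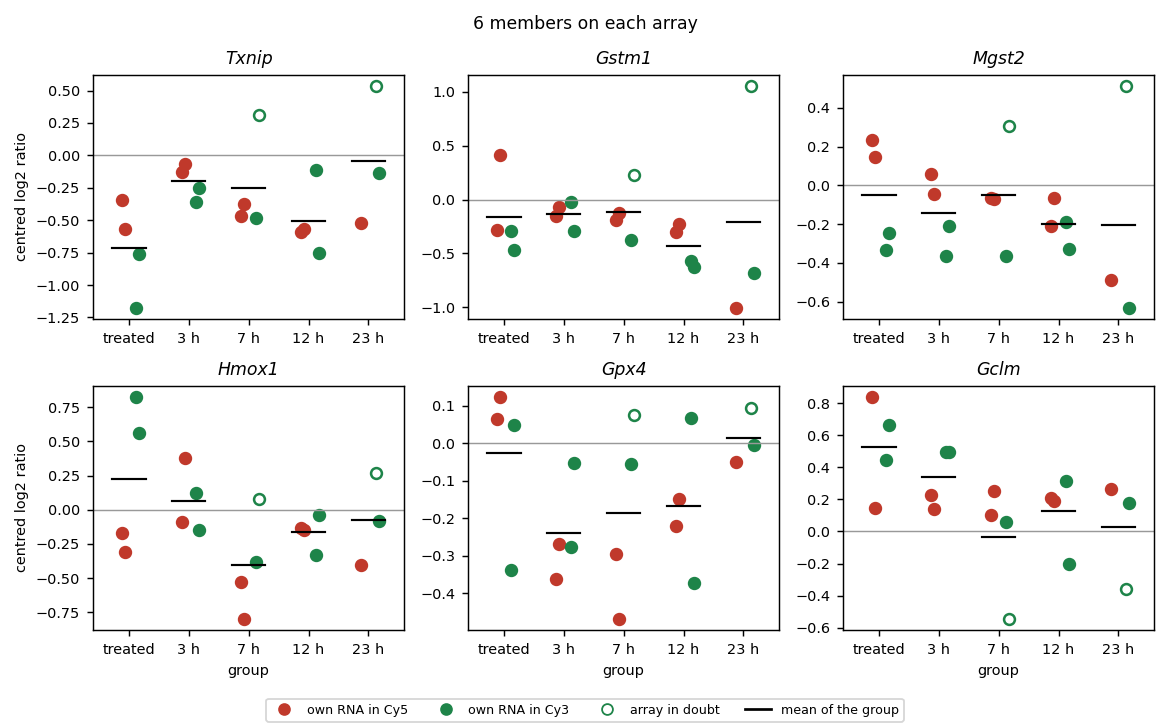
Centred log2 ratio (vertical axes, each on its own scale) of Txnip, Gstm1, Mgst2, Hmox1, Gpx4 and Gclm on each array of the 5 groups (horizontal axes), coloured by the dye of the own RNA, with open points for the arrays in doubt and a bar at the group mean. Txnip and Gstm1 lie below 0 on all 13 filled points of the time course, and the open points lie on the other side of 0 from most filled points of their group.

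Most fitted values of granulocyte and monocyte markers lay below 0, without any marker passing the test. Of 14 listed neutrophil symbols 12 were tested. Of these 12 markers 10 had fitted values below 0 in treated cells (median -0.22), 11 at 3 h (-0.13), 9 at 7 h (-0.13), 10 at 12 h (-0.36) and 11 at 23 h (-0.31). Of all features 7622 of 15915 lay below 0 in treated cells and 8050 of 16108 at 3 h. At 7, 12 and 23 h these were 8129 of 16087, 7864 of 16089 and 7976 of 16116. On single arrays the median of the neutrophil markers was -0.32 to -0.086 in treated cells, -0.18 to -0.072 at 3 h and -0.45 to -0.25 at 12 h. At 7 h it was -0.47, -0.27 and -0.18 with 0.42 on the array in doubt, and at 23 h -0.82 and -0.80 with 0.73 on the array in doubt. The 3 monocyte markers tested, of 7 listed symbols, lay below 0 at all 4 times, with Lyz2, lysozyme, at -0.73 at 12 h (adjusted p = 0.689). Erythroid markers, 7 tested of 17 listed symbols, were set beside Cat, Prdx2, Gpx1 and Glrx5 because red cell precursors hold much of them. The erythroid medians were -0.058 in treated cells and -0.014 to 0.091 at the 4 times. The part of these markers in the values of Gstm1, Mgst2, Txnip and Hmox1 was not tested, and in bulk RNA fewer cells of a type and less RNA per cell cannot be told apart.

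Upstream sequences are shown for Txnip, the member below 0 on most arrays, and Gclm, a well-known NRF2 target above 0 in treated cells and at 3 h. They are the 250 bases before the gene's start in RefSeq (build GRCm38.p6, plus strand), at chr3:96557707-96557956 for Txnip and chr3:122245307-122245556 for Gclm, and 49 of the 56 members had such a window. In capitals are a pair of CACGNG separated by NNNNN in Txnip, the form of a carbohydrate response element, and TGACNNNGC in Gclm, the core of the antioxidant response element, which here lies on the opposite strand.
Txnip: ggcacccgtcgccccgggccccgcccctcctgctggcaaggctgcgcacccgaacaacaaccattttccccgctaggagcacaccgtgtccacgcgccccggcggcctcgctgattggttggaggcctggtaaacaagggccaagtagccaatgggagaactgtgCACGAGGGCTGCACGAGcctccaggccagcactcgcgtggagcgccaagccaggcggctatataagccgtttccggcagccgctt
Gclm: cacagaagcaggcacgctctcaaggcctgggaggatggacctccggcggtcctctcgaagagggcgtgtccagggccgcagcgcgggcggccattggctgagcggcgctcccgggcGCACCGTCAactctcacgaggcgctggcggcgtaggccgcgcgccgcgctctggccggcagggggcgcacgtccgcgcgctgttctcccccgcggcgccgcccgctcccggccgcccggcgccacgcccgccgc
The antioxidant core was found on either strand in 9 of the 49 windows (Gclm, Gsta3, Gstm5, Prdx1, Sod1, Txndc11, Txndc2, Txndc5 and Txnrd1), while 11.5% of the windows of 27025 genes hold it. Of those tested among these 9, only Gclm had an unadjusted p under 0.05 in treated cells. The paired motif was found in Txnip alone among the members and in 0.0518% of all genes. A match describes these letters and does not show that a factor bound there.

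The tested genes that supply or regulate the antioxidant enzymes gave no call either. Of 43 listed genes for NRF2 regulation, cystine uptake and NADPH supply, 28 were tested in treated cells and 29 at each time, and none was called in any comparison. Slc7a11, G6pdx, Pgd, Idh2 and Nnt were among the listed genes that were not tested. At an unadjusted p under 0.05, 1 lay lower in treated cells (6.21% of features in either direction), 3 lower at 3 h (10.8%), 0 at 7 h (7.04%), 2 higher and 3 lower at 12 h (6.25%) and 0 at 23 h (3.35%). The list ran from -0.49 for the metallothionein Mt1 to 0.52 for Ggt7 in treated cells, and at 12 h from -0.95 for Mafk, a partner of NRF2, to 0.37 for the sestrin Sesn1. Of 26 partners of Glrx5 in iron-sulphur and haem synthesis 16 were tested and none was called, with Fdx1, the ferredoxin, highest in treated cells (0.73, adjusted p = 0.806) and Alas1, the first enzyme of haem synthesis, lowest (-0.41, adjusted p = 0.803). Of 27 peroxisomal partners of Cat 17 were tested and none was called, with Abcd3, a fatty acid transporter, highest in treated cells (1.001, adjusted p = 0.793) and Phyh lowest (-0.31).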

How the data were processed

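Per the labels' protocols, cDNA from total RNA was coupled to Cy3 or Cy5 after synthesis; the same protocols speak of organs and pooled control animals. The authors deposited 1 log ratio per spot, read here as log2. The sources used here do not give its base, its numerator, the image processing or the normalization. Symbols came from the platform annotation: of 20205 probes 13891 had 1 symbol, 5 several and 6309 none. The value each array repeats on 8 to 29 spots was set to missing, arrays were centred on their median, and probes of a gene were averaged. A feature was tested with values on at least 3 of 4 arrays (2 of 3 at 23 h). Group means were fitted with limma 3.58.1 in R 4.3.3 (lmFit and eBayes) with a term for dye orientation, and adjusted by Benjamini-Hochberg over all features. Spread means SD between arrays. No spot intensities were used, so depth is unknown and precision is limited by how many arrays each group has. Replicate numbers were not used as pairs. Deviations of 21 same-numbered pairs of time course arrays correlated between -0.11 and 0.19, 3 of them over 0.1. Same-numbered arrays also share a dye, so these values cannot decide whether the numbers mark pairs.

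The genes and lists were chosen with earlier results of these data known. The text names Cat and Glrx5, members called in either treated fit, the 3 with the smallest p in each comparison and the highest and lowest of each role in treated cells and at the 4 times (for peroxiredoxins and superoxide dismutases, over the 4 times together). In the neighbouring lists the highest and lowest are named for treated cells, and for 12 h in the NRF2 list. Others named were chosen after their values were seen. Alternatives covered spread, weights, sign of the Cy3 arrays, centring, scaling, missing values, dye term, probes, dyes and left-out arrays.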

Additional observations from a re-analysis of the deposited data

Results flagged for a closer look

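Among the named members, 24 groups of 4 arrays were checked for an array far from the others, and 2 stood out, where chance alone gives about 1 in 20. Gsto1 in treated replicate 4 was 0.44, while the other treated arrays lay between 0.19 and 0.23, a gap of 0.843 of the group's range. Txndc15 in 12 h replicate 1 was -0.083, while the other arrays lay between -0.21 and -0.20, a gap of 0.913 of the range. Both values lie on the same side of 0 as their group.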

How the results depend on the processing

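Over 35 alternatives, 464 of 510 values of named members kept their direction and side of the threshold, and no member was called at 3 h or 7 h under any of them. Numbers of called features by group follow. With the spread shared over 19 arrays 758 features and 7 members were called in treated cells. Array weights gave 2 features in treated cells, 3 at 3 h and 30 at 12 h, and a member median of 0.034 at 3 h. Only Cy5 arrays gave 3 at 3 h and at 7 h, 0 at 12 h, 14 at 23 h, 2 among times and 12 for 23 h minus 3 h, with member medians of 0.010 at 3 h, 0.035 at 7 h and -0.023 at 12 h. Only Cy3 arrays gave 1 at 12 h and a median of -0.011 at 3 h. Quantile normalization gave 2 among times, and 0 were called at 12 h with extreme values kept or only complete features. The median was 0.066 at 23 h without centring and 0.038 at 3 h with scaled arrays.

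Without both arrays in doubt 16, 77, 40 and 59 features were called at 3, 7, 12 and 23 h (2 members at 23 h), 10 among times and 13 for 23 h minus 3 h. With their signs turned, a setting chosen after seeing the data, the numbers were 28, 202, 60 and 128 (2 members each at 12 and 23 h), 21 and 21. Changing the Cy3 signs gave 1 among times and medians of -0.029 in treated cells and 0.011 at 3 h. Together with leaving out both arrays, also chosen after seeing the data, it gave 2 at 3 h, 4 at 7 h and 1 among times, with medians of 0.011, 0.034 and -0.056 at 3, 7 and 23 h.

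Reversed under the Cy3 signs in treated cells were Glrx5 (-1.56), Txnip (0.26), Gclm (-0.029), Gpx2 (-0.14), Gsto1 (-0.057) and Txndc11 (-0.10). So were Cat (-0.052) and Gsta4 (-0.024) at 3 h, Txndc15 (0.029) at 12 h, and Cat (0.21) and Glrx2 (-0.099) at 23 h. Without both arrays in doubt as well, Cat (-0.052) and Gsta4 (-0.024) at 3 h, Glrx5 (-0.080) at 7 h, Txndc15 (0.029) at 12 h, and Cat (0.013), Txndc16 (-0.0035) and Glrx2 (-0.12) at 23 h were reversed. Cy5 arrays alone reversed Cat at 3 h (-0.027) and 23 h (0.13), and Cy3 arrays alone Glrx5 at 3 h (-0.034) and 7 h (-0.0025), Cat at 7 h (-0.087) and Gpx4 at 7 h (0.010). Cat at 23 h was 0.12 without both arrays in doubt and 0.25 with their signs turned. Their causes were not tested. Changing the Cy3 signs sets the Cy5 against the Cy3 arrays, so genes alike on both dyes move toward 0 or turn.

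Leaving out 1 array gave 0 to 12 features at 7 h, 5 to 10 at 12 h, 0 to 1 at 23 h and 0 to 6 among times, and member medians of 0.0031 to 0.039 at 3 h and 0.0076 to 0.031 at 7 h. Cat ranged from -0.030 to 0.13 at 3 h, -0.049 to 0.33 at 7 h and -0.22 to 0.12 at 23 h, and Glrx5 from -0.076 to 0.10 at 7 h and -0.0034 to 0.094 at 12 h. A fit with the replicate number as a block over all 19 arrays called 606 features and 5 members in treated cells (Cat, Glrx5, Txnip, Gpx2 and Gsto1). The block also shares the spread over 19 arrays, and it changed no other call. Of 15 time course arrays, 7 correlated best with an array of their own number, which also shares their dye, so pairing stays undecided.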

Other observations

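Other lineage markers, looked at because the labels also name an ES cell line, showed no called gene in treated cells or at any time. Of 8 listed mast cell and basophil genes 3 were tested, and Mcpt8, the basophil protease, had fitted log2 ratios of -0.17 in treated cells, -0.41 at 3 h, -0.15 at 7 h, -0.61 at 12 h (adjusted p = 0.619) and -0.11 at 23 h. Hdc, which makes histamine, stood at -0.029 in treated cells and above 0 at each time, with 0.057 at 3 h, 0.22 at 7 h (adjusted p = 0.637), 0.098 at 12 h and 0.086 at 23 h. Cpa3, a mast cell protease, stood at -0.086 in treated cells and between -0.22 and -0.062 at the 4 times. The 7 tested progenitor genes had medians of -0.030 in treated cells and between -0.043 and 0.0033 at the 4 times. The 7 tested pluripotency genes had medians of -0.070 in treated cells, 0.10 at 3 h, -0.15 at 7 h, -0.014 at 12 h and 0.049 at 23 h. Ratios do not show whether any of these genes was expressed.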
